A study of Mus musculus with 12 samples.

Results

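The ribosomal proteins of the cytosol were described in sorted B16F10 melanoma tumours from mice with an induced deletion of the exonuclease gene Trex1 (iKO) and from their controls (Ctrl). The set was taken from the names in the deposited gene table: protein-coding genes called Rpl or Rps with a number, plus Rplp0, Rplp1, Rplp2 and Rpsa, without the ribosomal S6 kinases (10 Rps6k genes) and without 8 protein-coding genes whose names end in -ps. It held 86 of the 54532 genes of the table. Of these, 77 encode a core protein of the ribosome, 46 in the large and 31 in the small subunit. Another 8 are paralogs, close relatives of a core gene, and are described apart. The last, Rps19bp1, encodes a protein that binds Rps19 and matched by name only.

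Both groups of tumours grew from 1000 unmodified cells of B16F10, a mouse melanoma line that makes pigment, injected in the skin of each leg of male mice aged 8 to 12 weeks. The 6 iKO libraries came from Trex1 Fl/Fl R26CreERT2 hosts, in which both copies of Trex1 are flanked by loxP sites, and the 6 Ctrl libraries from Trex1 Fl/WT R26CreERT2 hosts, with 1 such copy. All hosts, controls included, carried the tamoxifen-activated Cre recombinase at the Rosa26 locus and received 1 mg of tamoxifen on each of 3 days from day 5, so that Ctrl hosts could also lose 1 copy. Only the host's cells carry these alleles, and the tumour cells do not. Tumours were taken on day 14, digested and sorted, and poly(A) RNA was sequenced in bulk. The cell type label names cells negative for both CD45, on leukocytes, and CD31, on endothelium, whereas the protocol text reads as negative for either. The labels do not tie libraries to mice.

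Every cytosolic ribosome needs about equal amounts of each of its proteins, and cells make them from abundant, mostly short mRNAs. Most of these mRNAs begin with a cytosine and a run of pyrimidines, the terminal oligopyrimidine or TOP motif, through which the kinase mTOR and the RNA-binding protein Larp1 control their translation. In growing cells such as tumour cells ribosomal protein mRNAs are among the most abundant of all, and surplus proteins are degraded or, in the case of Rpl5 and Rpl11, bind Mdm2 and stabilise p53.

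The start of the transcript is shown for 6 core genes, because the shared pyrimidine start is the sequence feature this family is best known for. Each line runs from 15 bases before to 25 bases from the annotated start (RefSeq, GRCm38.p6), and capitals mark the run of a C and at least 4 pyrimidines at the start itself. The 6 genes lie at chr7:4792950-4792989 on the plus strand (Rpl28), chr2:39005107-39005146 on the minus strand (Rpl35), chr11:114668565-114668604 on the plus strand (Rpl38), chr7:141447636-141447675 on the plus strand (Rplp2), chr4:86857343-86857382 on the minus strand (Rps6) and chr17:27635220-27635259 on the minus strand (Rps10).
Rpl28: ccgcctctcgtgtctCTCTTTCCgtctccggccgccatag
Rpl35: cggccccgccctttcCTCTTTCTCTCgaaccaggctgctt
Rpl38: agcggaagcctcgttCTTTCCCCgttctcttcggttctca
Rplp2: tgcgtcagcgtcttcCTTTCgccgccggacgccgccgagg
Rps6: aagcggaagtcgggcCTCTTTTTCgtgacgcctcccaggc
Rps10: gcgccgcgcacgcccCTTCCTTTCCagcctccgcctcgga

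Of the 77 core genes, 57 had an entry in the RefSeq promoter table, which covers 250 bases before to 50 bases after each start. A C followed by at least 4 pyrimidines stood at the annotated start in 13 of the 57 (22.8%), against 2.65% of 16440 other genes. Within the whole window, on the strand that reads like the mRNA, CTTTCC occurred in 40.4% of the core promoters and 15.9% of the others. CTCTTTC occurred there in 22.8% and 4.45%. The motif CCGGAAG, read on both strands and bound by ETS factors, occurred in 42.1% of the core promoters and 13.2% of the others. AAGATGG on both strands, the core of the YY1 motif, occurred in 15.8% and 7.24%. On the strand that reads like the mRNA, TATAAA occurred in 8.77% and 9.47%, and CTTTTTC in 5.26% and 3.52%. The pyrimidine motifs overlap each other, and an annotated start can differ by some bases from the start used in these cells.

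The 12 libraries held 29808243 to 35520399 counts in iKO and 34342436 to 45828565 counts in Ctrl. Trex1 itself, the targeted gene, had 0 counts in all 12 libraries, so it could not check the labels, and 3 counts would be 0.0655 to 0.101 CPM (counts per 1000000). The tumour cells are unmodified, so these counts of 0 are not read as absence of Trex1 RNA, and their reason was not tested. In the fit over all 16164 tested genes (edgeR), 25.0% were higher and 21.4% lower in iKO at an adjusted p under 0.05. Leukocyte markers did not follow the groups in every library. The leukocyte score, the mean log2 CPM of 10 markers, was 4.35 in iKO 1 and 6.81 to 7.55 in the other iKO libraries, against 4.64 in Ctrl 5 and 0.821 to 2.29 in the other Ctrl libraries. Ctrl 5 and iKO 1 thus stood nearer each other than their groups did. The hosts were labelled male, yet Xist, the transcript of the inactive X chromosome, had 6869 and 4124 counts in iKO 2 and iKO 3, against 2 to 247 in the other 10 libraries, and 4 Y-linked genes had 44 and 0 counts there, against 107 to 1513. Results that rest on this pair are also given without it.

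Core ribosomal protein mRNAs were lower in iKO tumours as a family. Of the 77 core genes, 72 fell and 0 rose (edgeR, adjusted p under 0.05), and the fitted change was below 0 for all 77. Over all tested genes 21.4% were called lower, and among the 2374 genes that averaged 100 CPM or more, as 74 of the 77 core genes did, 37.9% were lower and 24.3% higher. The median log2 fold change, iKO over Ctrl, was -0.34, a level 21.0% lower, against 0.02 over all tested genes and -0.08 over those with at least 100 CPM. The changes lay close together, with quartiles at -0.41 and -0.30. Fewer cells of a type and less RNA per cell cannot be told apart in such bulk libraries, and neither can less ribosomal protein mRNA and more of other RNA.

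Shares were taken of each library's total counts, with no further scaling. The 77 core genes took up 4.45, 4.00, 4.00, 3.62, 4.09 and 4.62% of all counts in iKO libraries 1 to 6. In Ctrl libraries 1 to 6 they took up 4.85, 4.89, 5.11, 5.80, 6.38 and 4.99%. By this share every iKO library was below every Ctrl library. The mean share was 4.13 ± 0.356% in iKO and 5.34 ± 0.617% in Ctrl (SD, n = 6 each), a difference of -1.21 percentage points that was given no test. The groups nearly met, since iKO 6 and Ctrl 1 lay at 4.62% and 4.85%. Ctrl 4 and Ctrl 5 were high within Ctrl, and iKO 4 was low within iKO.

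**Figure D1:**
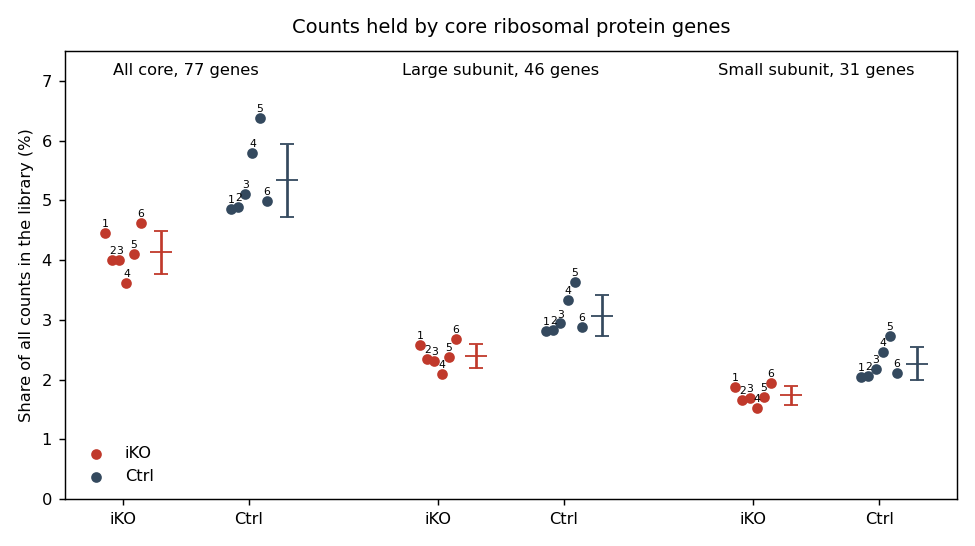
Share of all counts in a library held by the core genes, for all 77, the 46 of the large and the 31 of the small subunit. Each point is 1 library, numbered, and bars give mean ± SD (n = 6). All iKO libraries lie below all Ctrl libraries, at 3.62 to 4.62% against 4.85 to 6.38% for the 77 genes.

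The genes moved together from library to library as well as between groups. Of all 12 libraries, iKO 4 had the lowest CPM for 61 of the 77 core genes, and Ctrl 5 the highest for 73. The same counts were not made over other genes, so whether this is particular to the core genes was not tested. Set against each gene's geometric mean over the 12 libraries, the median core gene was at -0.364 (log2) in iKO 4 and at 0.0768 in iKO 6, against 0.0133 in Ctrl 1, 0.333 in Ctrl 4 and 0.484 in Ctrl 5. On this scale iKO 6 stood above Ctrl 1, 2 and 6, and all other iKO libraries stood below all Ctrl libraries. The number of core genes past the threshold rested on these libraries: it was 42 without both iKO 2 and iKO 3, 49 without Ctrl 4 and 56 without Ctrl 5. With both Ctrl 4 and Ctrl 5 left out, a choice made after seeing these values, 34 of 77 passed and the median was -0.22. Over the whole table the genes called lower dropped too, from 3464 of 16164 to 2965 of 16511 without iKO 2 and iKO 3. They were 2671 of 16601 without Ctrl 4, 2811 of 16542 without Ctrl 5 and 2751 of 16926 without both. No core gene was called higher in any of these fits.

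**Figure D2:**
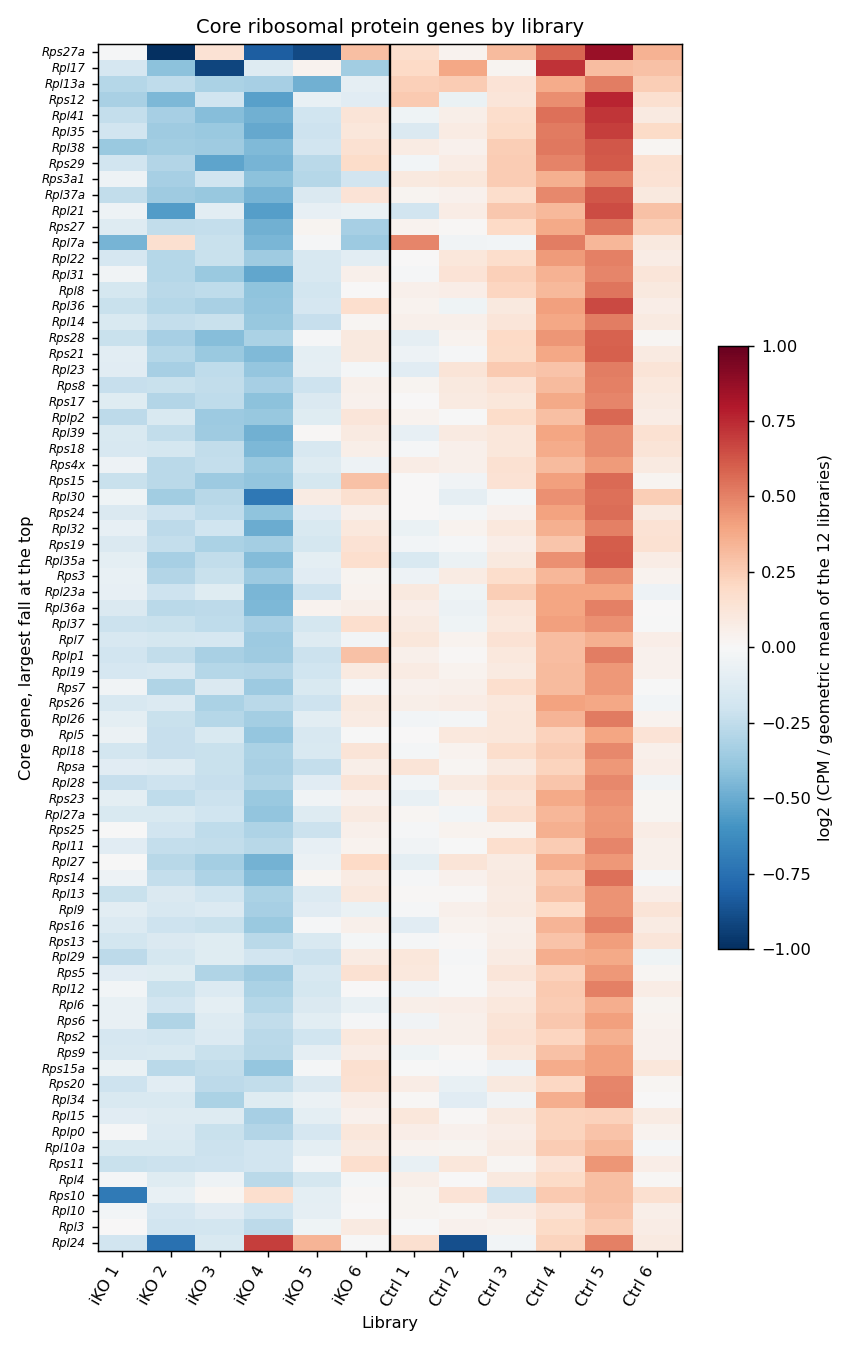
Level of 76 of the 77 core genes in each library, as log2 of CPM over the gene's geometric mean of the 12 libraries, with genes ordered by log2 fold change. Values beyond 1 in size share the end colour. Columns move as blocks, with iKO 4 lowest for 61 and Ctrl 5 highest for 73 of all 77 genes, while Rps27a, Rpl17, Rps10 and Rpl24 are among the genes that break the pattern. Other genes were not counted in this way.

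Both subunits fell. In the large subunit 42 of 46 genes fell, with a median log2 fold change of -0.34, and in the small subunit 30 of 31, with a median of -0.34. The ratio of summed large-subunit to summed small-subunit counts, which no library scaling affects, was 1.37, 1.40, 1.37, 1.38, 1.39 and 1.38 in iKO libraries 1 to 6, against 1.37, 1.37, 1.35, 1.35, 1.33 and 1.36 in Ctrl libraries 1 to 6. It averaged 1.38 ± 0.0130 in iKO and 1.36 ± 0.0144 in Ctrl (SD, n = 6 each), and the ranges overlapped only through iKO 1 and iKO 3 against Ctrl 1. The share of the small subunit was 1.73% in iKO and 2.27% in Ctrl, and that of the large subunit 2.40% and 3.07%.

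**Figure D3:**
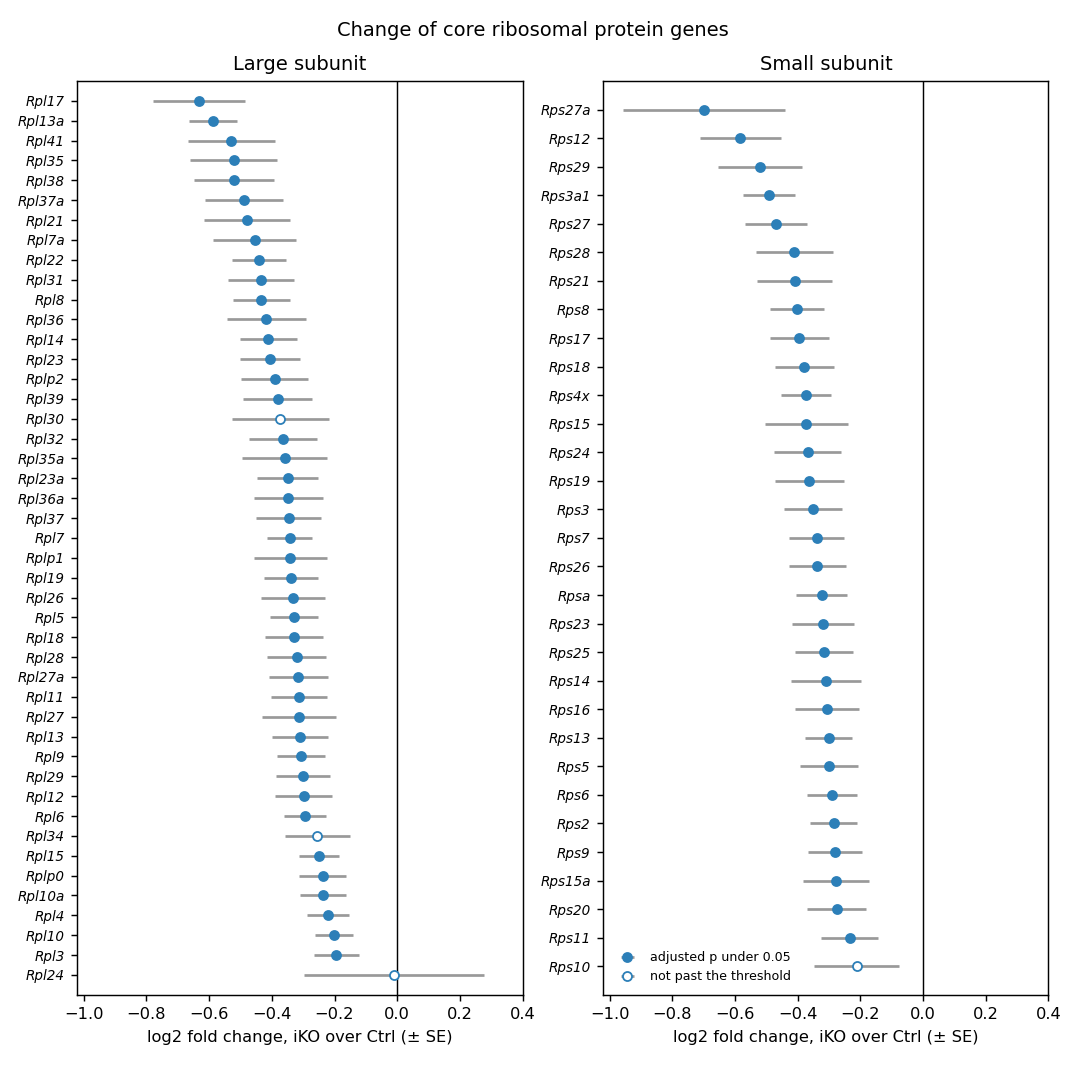
Log2 fold change, iKO over Ctrl, with its standard error for 76 of the 77 core genes, by subunit. Filled points passed an adjusted p of 0.05 in edgeR and open points did not. All points lie below 0, between -0.70 for Rps27a and -0.01 for Rpl24.

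Levels per gene length, as RPKM, that is CPM divided by the deposited gene length in kilobases, were highest for Rplp1, Rps3a1, Rplp0, Rps15 and Rpl36. Rplp0, Rplp1 and Rplp2 form the stalk of the large subunit, which recruits the elongation factors, and all 3 fell. Rplp1 (chr9:61913284-61914542, GRCm38) had the highest mean, at 1909.7 RPKM in iKO and 2418 RPKM in Ctrl. It measured 932, 897, 846, 830.0, 913 and 1299 CPM in iKO libraries 1 to 6, against 1101, 1069, 1145, 1317, 1517 and 1091 CPM in Ctrl libraries 1 to 6. All iKO libraries but iKO 6 were below every Ctrl library. Its log2 fold change was -0.34 ± 0.12 (SE, edgeR adjusted p = 0.0277), and the call was lost in 9 of 25 alternatives. Rplp0 (chr5:115559467-115563727) measured 1719.8, 1583, 1487, 1422, 1546 and 1878 CPM in iKO libraries 1 to 6, against 1824, 1790.1, 1820.0, 2027, 2119 and 1785 CPM in Ctrl libraries 1 to 6, again overlapping through iKO 6. The fitted log2 fold change was -0.24 ± 0.08 (SE, edgeR adjusted p = 0.0190), lost in 6 of 25 alternatives. Rplp2 had a minimum, median and maximum of 260.1, 293 and 368 CPM in iKO, against 338, 371 and 504 CPM in Ctrl, and a log2 fold change of -0.39 ± 0.11 (SE, edgeR adjusted p = 0.00827).

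Rps3a1 (chr3:86137940-86142702), a protein of the small subunit's platform, was the second by RPKM, at 1259.8 RPKM in iKO and 1772 RPKM in Ctrl. It measured 1404, 1155, 1268, 1094, 1191 and 1274 CPM in iKO libraries 1 to 6, against 1553, 1574, 1730.1, 1863, 2064 and 1604 CPM in Ctrl libraries 1 to 6. No iKO library reached the lowest Ctrl library. On the log2 scale the change was -0.49 ± 0.08 (SE, edgeR adjusted p = 0.000355), and it passed the threshold in all 25 alternatives. Rps15, a protein of the small subunit's head, reached 852 RPKM in iKO and 1103 RPKM in Ctrl, and Rpl36 830.0 RPKM in iKO and 1109 RPKM in Ctrl. Rps15 had a minimum, median and maximum of 459, 509 and 739.7 CPM in iKO, against 588, 641 and 892 CPM in Ctrl, and Rpl36 of 277, 305 and 409 CPM in iKO, against 353, 384 and 573 CPM in Ctrl. The groups of both overlapped through iKO 6. Their log2 fold changes were -0.37 ± 0.13 for Rps15 (SE, edgeR adjusted p = 0.0331, lost in 12 of 25 alternatives) and -0.42 ± 0.13 for Rpl36 (adjusted p = 0.0155, lost in 2).

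Rps27a, Rpl17, Rpl13a, Rps12, Rpl41 and Rpl35 had the largest falls past the threshold. Rps27a (chr11:29545846-29548109) encodes ubiquitin fused to a small-subunit protein, and it was the least regular of the abundant members. It measured 348, 174, 388, 198, 187 and 432 CPM in iKO libraries 1 to 6, against 394, 359, 438, 526, 637 and 446 CPM in Ctrl libraries 1 to 6. iKO 2, 4 and 5 had about equal low levels, whereas iKO 1, 3 and 6 lay within the range of the Ctrl libraries or just below it. The mean was 288 ± 115 CPM in iKO and 467 ± 101 CPM in Ctrl (SD, n = 6 each), and the log2 fold change -0.70 ± 0.26 (SE, edgeR adjusted p = 0.0449). The coefficient of variation in iKO was 39.8%, against a median of 11.0% over the core genes, and the call was lost in 14 of 25 alternatives. The 8 near-identical copies of Rps27a held 6.22% of the joint counts, and with them added the iKO libraries showed the same split, at 377, 201, 406, 221, 219 and 458 CPM.

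Rpl13a (chr7:45125558-45128761), known in human cells also as part of a complex that silences inflammatory mRNAs, had the smallest p of the family. It measured 34.0, 34.8, 33.3, 33.0, 29.8 and 39.1 CPM in iKO libraries 1 to 6, against 49.0, 49.5, 45.7, 53.7, 59.2 and 49.4 CPM in Ctrl libraries 1 to 6, with no overlap. Its log2 fold change was -0.59 ± 0.08 (SE, edgeR adjusted p = 5.63e-05). It was at the same time the core gene with the third lowest level per length, 16.1 RPKM in iKO and 24.2 RPKM in Ctrl, and 35.4% of its exon sequence is shared with other annotated genes, among them the small nucleolar RNA Snord33. Rps12, a small-subunit protein, measured 243, 223, 264, 208, 288 and 280.5 CPM in iKO libraries 1 to 6, against 363, 289, 329.8, 419.9, 514 and 339.9 CPM in Ctrl libraries 1 to 6. All iKO libraries were lower, and Ctrl 5 stood highest. The fitted log2 fold change was -0.58 ± 0.13 (SE, edgeR adjusted p = 0.00258).

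Rpl41, whose protein is the shortest of the ribosome, and Rpl35, at the exit of the peptide tunnel, overlapped between groups. The minimum, median and maximum were 507, 581 and 776 CPM in iKO, against 688, 776 and 1159.7 CPM in Ctrl for Rpl41. For Rpl35 they were 166, 194 and 255 CPM in iKO, against 212, 269 and 381 CPM in Ctrl. The log2 fold changes were -0.53 ± 0.14 for Rpl41 (SE, edgeR adjusted p = 0.00766) and -0.52 ± 0.14 for Rpl35 (adjusted p = 0.00782). Exons of Arpc5l and Wdr38 cover 66.2% of the exon sequence of Rpl35, and the libraries did not keep strand.

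In 15 of the 77 core genes (19.5%) every iKO library was below every Ctrl library. That share was near the 21.4% found among all genes that averaged 100 CPM or more, and above the 11.1% of all tested genes. The 15 were Rpl13a, Rps3a1, Rpl22, Rpl8, Rpl7, Rps4x, Rpl14 and Rps12, the 8 with the smallest p, and Rpl6, Rpl5, Rpl9, Rps13, Rps7, Rpl10 and Rpl4. Rpl8, a protein at the peptidyl transferase centre (chr15:76904078-76906314), measured 1124, 1055, 1070.3, 962, 1123 and 1275 CPM in iKO libraries 1 to 6, against 1318, 1336, 1477, 1592, 1844 and 1361 CPM in Ctrl libraries 1 to 6. It has no near-identical copy in the annotation and no exon shared with another gene, and its log2 fold change was -0.43 ± 0.09 (SE, edgeR adjusted p = 0.00157). Rps4x, encoded on the X chromosome, measured 1013 ± 90.2 CPM in iKO and 1313 ± 143 CPM in Ctrl (SD, n = 6 each), with a log2 fold change of -0.37 ± 0.08 (SE, edgeR adjusted p = 0.00194). Rpl14 measured 406 ± 37.5 CPM in iKO and 540.0 ± 77.6 CPM in Ctrl (SD, n = 6 each), with a log2 fold change of -0.41 ± 0.09 (SE, edgeR adjusted p = 0.00240).

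Among the members known for roles outside the ribosome, Rpl5 and Rpl11, which join the 5S RNA and bind Mdm2, had log2 fold changes of -0.33 ± 0.08 and -0.31 ± 0.09 (SE, edgeR adjusted p = 0.00326 and 0.0106). Rps6, the substrate of the S6 kinases, measured 897 ± 67.2 CPM in iKO and 1097 ± 130.1 CPM in Ctrl (SD, n = 6 each), with a log2 fold change of -0.29 ± 0.08 (SE, edgeR adjusted p = 0.00882). Rpl38, whose loss in mice alters the skeleton through the translation of Hox mRNAs, measured 138 ± 22.4 CPM in iKO and 198 ± 37.0 CPM in Ctrl (SD, n = 6 each). On the log2 scale the change was -0.52 ± 0.13 (SE, edgeR adjusted p = 0.00455). These were named after their values were seen.

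Of the 77 core genes, 5 did not pass the threshold, among them Rpl24, Rps10, Rpl34 and Rpl30. Rpl30 had a log2 fold change of -0.37 ± 0.15 (SE, edgeR adjusted p = 0.0659) and Rpl34 of -0.25 ± 0.10 (adjusted p = 0.0580). In Rpl30 the spread was wide, at 255, 206, 216, 160.2, 278 and 293 CPM in iKO libraries 1 to 6, against 263, 247, 258, 360.2, 384 and 310.4 CPM in Ctrl libraries 1 to 6. Rps10 and Rpl24 had the lowest levels of the core family, 5.04 RPKM in iKO and 5.84 RPKM in Ctrl for Rps10, and 1.08 RPKM in iKO and 1.09 RPKM in Ctrl for Rpl24. Rps10 measured 7.59, 11.8, 12.5, 14.0, 11.6 and 12.5 CPM in iKO libraries 1 to 6, against 12.6, 13.6, 10.7, 14.9, 15.3 and 13.9 CPM in Ctrl libraries 1 to 6, with iKO 1 lowest. Rpl24 measured 0.937, 0.639, 0.964, 1.73, 1.36 and 1.07 CPM in iKO libraries 1 to 6, against 1.20, 0.584, 1.05, 1.25, 1.52 and 1.14 CPM in Ctrl libraries 1 to 6, with full overlap. Their log2 fold changes were -0.21 ± 0.13 for Rps10 (SE, edgeR adjusted p = 0.214) and -0.01 ± 0.29 for Rpl24 (adjusted p = 0.982).

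Rps10 and Rpl24 both have copies elsewhere in the genome that held most of the counts. Ribosomal protein mRNAs have left many processed pseudogenes, and 73 of the 77 core genes had at least 1 near-identical copy among the table's genes (at least 95% identity over 80% of the coding region), 564 copies in all. How the authors' counting divided reads between gene and copies is not given in the sources used here, so these values are uncertain for each gene alone. The copies held a median of 3.96% of the joint counts, more than 10% for 22 core genes and more than 50% for 3. The 3 were Rps10 at 91.0%, Rpl24 at 89.7% and Rpl17 at 51.9%. Most counts of Rps10 sat on a single pseudogene, Rps10-ps2, with 103, 108, 109, 91.5, 107 and 138 CPM in iKO libraries 1 to 6, against 119, 118, 123, 139.9, 151 and 117 CPM in Ctrl libraries 1 to 6. Of the 248 copies with enough counts for the test, 35 were lower (14.1%, against 21.4% of all tested genes) and 1 higher in iKO (Gm11425, against 25.0% of all tested genes called higher), with a median log2 fold change of -0.24.

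Rpl17, the second largest fall, changed with the way copies were treated. The gene alone measured 191, 161, 113, 196, 219 and 168 CPM in iKO libraries 1 to 6, against 246, 280.4, 219, 353, 265 and 262 CPM in Ctrl libraries 1 to 6, and the groups met at iKO 5 and Ctrl 3. For the gene alone the log2 fold change was -0.63 ± 0.15 (SE, edgeR adjusted p = 0.00388). Its pseudogene Rpl17-ps10, whose match spans the whole coding region, measured 193, 188, 159, 166, 187 and 231 CPM in iKO libraries 1 to 6, against 94.1, 90.2, 157, 86.7, 245 and 147 CPM in Ctrl libraries 1 to 6. That pseudogene was low in Ctrl 1, 2 and 4 and high in Ctrl 5. Rpl17 and its 23 copies summed to 469, 433, 386, 425, 494 and 490.0 CPM in iKO libraries 1 to 6, against 409, 450.1, 446, 537, 626 and 486 CPM in Ctrl libraries 1 to 6. The log2 fold change of the sum was -0.13 (edgeR adjusted p = 0.291), so the fall of Rpl17 did not hold for the joint counts.

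When every core gene was summed with its copies and the table refitted, a step added after seeing these values, 66 of 77 core genes were lower and 0 higher, with a median log2 fold change of -0.31. In that fit 3119 of all 15916 tested genes were lower. Summed Rps10 measured 119.9, 132, 130.2, 111, 128 and 160.2 CPM in iKO libraries 1 to 6, against 137, 137, 141, 167, 181 and 137 CPM in Ctrl libraries 1 to 6, which on the log2 scale was a change of -0.20 (edgeR adjusted p = 0.0901). Summed Rpl24 remained low, at 10.1, 12.3, 9.99, 11.5, 10.3 and 14.7 CPM in iKO libraries 1 to 6, against 9.83, 7.52, 8.76, 13.5, 13.6 and 9.50 CPM in Ctrl libraries 1 to 6. The core genes with their copies took up 4.43 ± 0.376% of counts in iKO and 5.68 ± 0.664% in Ctrl (SD, n = 6 each).

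**Figure D4:**
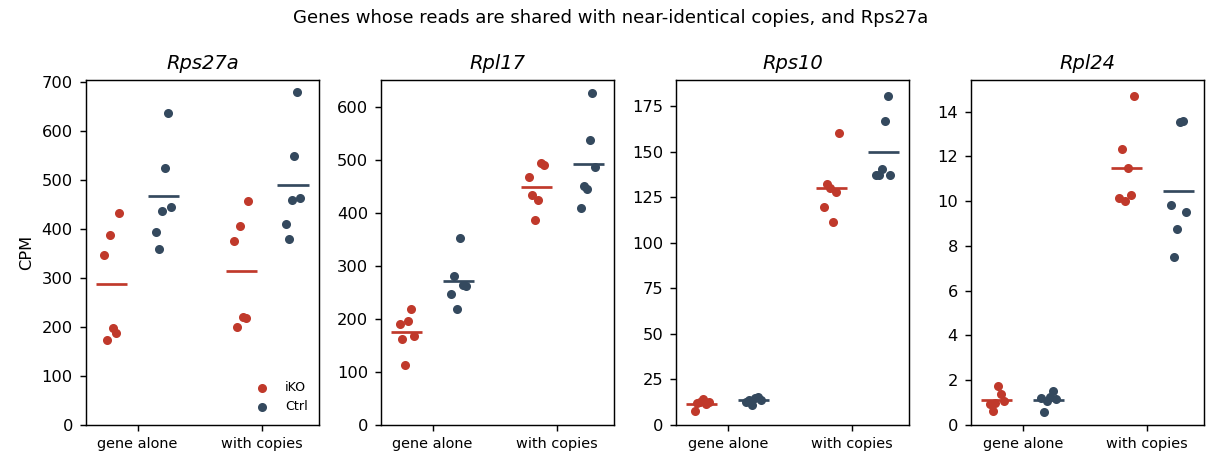
CPM of Rps27a, Rpl17, Rps10 and Rpl24 in each library, for the gene alone and summed with its near-identical copies, with horizontal lines at the group means. Rps27a keeps low values in iKO 2, 4 and 5 either way, the group difference of Rpl17 shrinks with copies, and most counts of Rps10 and Rpl24 lie in copies.

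Of the 8 paralogs, 3 fell, 3 were tested without a call and 2 had too few counts for the test. For comparison, 21.4% of all tested genes were called lower and 25.0% higher. Rps27l, a paralog of Rps27 that p53 induces, measured 133, 116, 125, 93.3, 121 and 124 CPM in iKO libraries 1 to 6, against 131, 152, 144, 208, 203 and 168 CPM in Ctrl libraries 1 to 6. Apart from iKO 1 against Ctrl 1, iKO libraries were lower, with a log2 fold change of -0.50 ± 0.12 (SE, edgeR adjusted p = 0.00374). Its parent Rps27 had a log2 fold change of -0.47 ± 0.10 (adjusted p = 0.00175) and a mean of 139.9 ± 17.1 CPM in iKO and 194 ± 27.6 CPM in Ctrl (SD, n = 6 each). Rpl7l1, related to a ribosome assembly factor of yeast, measured 118, 113, 131, 106, 110.1 and 131 CPM in iKO libraries 1 to 6, against 137, 141, 153, 153, 149 and 146 CPM in Ctrl libraries 1 to 6 with no overlap. Its log2 fold change was -0.31 ± 0.06 (SE, edgeR adjusted p = 0.00120), beside -0.34 ± 0.07 for its parent Rpl7 (adjusted p = 0.00162). Rpl22l1, which can take the place of Rpl22 in the ribosome, measured 43.2, 35.4, 34.8, 34.1, 43.2 and 40.1 CPM in iKO libraries 1 to 6, against 39.2, 48.2, 46.1, 50.7, 61.5 and 51.9 CPM in Ctrl libraries 1 to 6. The fitted log2 fold change was -0.37 ± 0.10 (SE, edgeR adjusted p = 0.00863), beside -0.44 ± 0.09 for Rpl22 (adjusted p = 0.000987).

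Rps27rt is a retrogene, a copy of the Rps27 mRNA inserted elsewhere in the genome. The pair is shown because the starts of both genes share sequence. Whether their reads can be told apart was not tested. The shared run reaches the end of the Rps27 window, so the match may be longer than shown. Capitals mark the 29 bases that the windows share, from chr3:90213619-90213663 on the minus strand (Rps27) and chr9:114982710-114982754 on the minus strand (Rps27rt), both RefSeq, GRCm38.p6.
Rps27: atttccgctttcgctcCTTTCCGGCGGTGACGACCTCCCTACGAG
Rps27rt: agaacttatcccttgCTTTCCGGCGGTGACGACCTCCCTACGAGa
Rps27rt measured 61.2, 63.8, 57.8, 63.1, 52.8 and 116 CPM in iKO libraries 1 to 6, against 63.9, 65.2, 53.6, 70.3, 74.4 and 54.0 CPM in Ctrl libraries 1 to 6. iKO 6 stood far above the other 11 libraries, which overlapped. On the log2 scale the change was 0.12 ± 0.18 (SE, edgeR adjusted p = 0.605), and -0.09 without iKO 6. Rps27 and its copies, Rps27rt included, changed in sum by -0.28 on the log2 scale (edgeR adjusted p = 0.0219).

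Rpl36al measured 2.68, 1.63, 1.53, 2.04, 1.00 and 1.51 CPM in iKO libraries 1 to 6, against 1.26, 2.24, 1.95, 1.69, 1.68 and 1.71 CPM in Ctrl libraries 1 to 6, with a log2 fold change of -0.02 ± 0.24 (SE, edgeR adjusted p = 0.953), while its parent Rpl36a fell, at -0.35 ± 0.11 (adjusted p = 0.0189). Rpl39l, a relative of Rpl39 known from the testis, was near its detection limit, at 0.646, 2.81, 1.25, 0.340, 0.177 and 0 CPM in iKO libraries 1 to 6, against 0, 0.164, 0.791, 0.233, 0.662 and 0.394 CPM in Ctrl libraries 1 to 6. Its log2 fold change of 1.22 ± 0.95 (SE, edgeR adjusted p = 0.315) rested on iKO 2 and iKO 3 and was -0.36 without them. Rpl39 itself fell, at -0.38 ± 0.11 (adjusted p = 0.0114). Rpl3l, the muscle paralog of Rpl3, had 65 counts over all iKO libraries, against 58 over all Ctrl libraries, and Rpl10l, the testis paralog of Rpl10, had 0 in all 12. The parents were abundant: Rpl3 measured 1331 ± 124 CPM in iKO and 1524 ± 111 CPM in Ctrl and Rpl10 780.3 ± 42.4 CPM in iKO and 898 ± 65.8 CPM in Ctrl (SD, n = 6 each). Their log2 fold changes were -0.19 ± 0.07 for Rpl3 (SE, edgeR adjusted p = 0.0380, lost in 15 of 25 alternatives) and -0.20 ± 0.06 for Rpl10 (adjusted p = 0.0138, lost in 4). Rps19bp1, outside the ribosome, measured 33.4 ± 4.50 CPM in iKO and 46.0 ± 4.89 CPM in Ctrl (SD, n = 6 each), a log2 fold change of -0.46 ± 0.10 (SE, edgeR adjusted p = 0.00161).

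The ribosomal proteins Rack1 and Fau do not carry an Rpl or Rps name. Rack1, the signalling scaffold on the head of the small subunit, fell, with 1357, 1274, 1226, 1123, 1240.2 and 1476 CPM in iKO libraries 1 to 6, against 1537, 1403, 1452, 1609, 1714 and 1434 CPM in Ctrl libraries 1 to 6 and a log2 fold change of -0.25 ± 0.07 (SE, edgeR adjusted p = 0.0129). Fau, a ubiquitin-like protein fused to a small-subunit protein, measured 304, 354, 333, 359, 388 and 473 CPM in iKO libraries 1 to 6, against 357, 346, 386, 419, 529 and 365 CPM in Ctrl libraries 1 to 6. Its log2 fold change was -0.12 ± 0.12 (SE, edgeR adjusted p = 0.427). The groups of Fau overlapped widely.

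For the lists of partners that follow, the shares over all tested genes are 21.4% lower and 25.0% higher, and over genes that averaged 100 CPM or more 37.9% lower and 24.3% higher. Of 9 tested genes named for elongation factors, 8 fell (88.9%) and 0 rose, at a median log2 fold change of -0.37, including Eef1g (-0.38 ± 0.07, SE, edgeR adjusted p = 0.000510), Eef1d (-0.45 ± 0.08, adjusted p = 0.000694), Eif5a (-0.37 ± 0.07, adjusted p = 0.000826) and Eef1b2 (-0.43 ± 0.10, adjusted p = 0.00284). Eef2k (-0.41) and Eef1e1 (-0.32), also among the 8, carry the name but are not themselves elongation factors. Eef2, which moves the ribosome along the mRNA, had no call, at 3717 ± 328 CPM in iKO and 3819 ± 122 CPM in Ctrl (SD, n = 6 each). Of 14 other mRNAs known for a TOP start, a list that also holds Rack1 and Fau, 10 fell (71.4%) and 0 rose, with a median of -0.21. Npm1, a chaperone of the nucleolus, had the smallest p there, with 921 ± 92.3 CPM in iKO and 1293 ± 95.7 CPM in Ctrl (SD, n = 6 each) and a log2 fold change of -0.49 ± 0.07 (SE, edgeR adjusted p = 0.000175). Hnrnpa1 (-0.30), Naca (-0.33) and Eif3l (-0.24) followed by p.

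Of 33 tested ribosome biogenesis factors, 19 fell (57.6%) and 2 rose, with a median log2 fold change of -0.19. Those with the smallest p were Rrs1 (-0.52 ± 0.07, SE, edgeR adjusted p = 5.54e-05), Nop58 (-0.44 ± 0.07, adjusted p = 0.000207), Bop1 (-0.36 ± 0.06, adjusted p = 0.000371) and Dkc1 (-0.48 ± 0.09, adjusted p = 0.000624). Heatr1 (0.30 ± 0.08, adjusted p = 0.00676) and Utp20 (0.25 ± 0.09, adjusted p = 0.0406), both large proteins of the early small-subunit precursor, rose. Of 13 genes of RNA polymerase I and its factors, 4 fell (30.8%) and 0 rose, with a median of -0.13. That share lies between those of all tested genes and of genes with at least 100 CPM. Polr1c (-0.34 ± 0.07, SE, edgeR adjusted p = 0.00109) and Polr1d (-0.33 ± 0.08, adjusted p = 0.00448) are subunits shared with RNA polymerase III, and the calls of Ubtf (-0.13) and Taf1b (-0.19) were lost in 16 and 17 of 25 alternatives.

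Among 15 genes that control ribosomal protein synthesis, 6 rose (40.0%, against 25.0% of all tested genes) and 2 fell (13.3%, against 21.4%), with a median log2 fold change of -0.02. Mtor measured 74.6 ± 4.90 CPM in iKO and 54.6 ± 6.32 CPM in Ctrl (SD, n = 6 each), a log2 fold change of 0.45 ± 0.08 (SE, edgeR adjusted p = 0.000441). Tsc1 (0.38 ± 0.09, adjusted p = 0.00471) and Larp1 (0.22 ± 0.05, adjusted p = 0.00509) also rose, and Rheb, which activates mTOR, fell (-0.26 ± 0.05, adjusted p = 0.000558). Myc, an activator of ribosomal protein genes, measured 100.2 ± 8.91 CPM in iKO and 107 ± 5.51 CPM in Ctrl (SD, n = 6 each) and did not pass (edgeR adjusted p = 0.202). Of 4 sentinels of ribosomal stress, Zmat3 (-0.42 ± 0.08, SE, edgeR adjusted p = 0.00114) and Trp53 itself (-0.26 ± 0.06, adjusted p = 0.00257) fell, Mdm2 rose (0.44 ± 0.10, adjusted p = 0.00292) and Cdkn1a did not pass, at 223 ± 42.7 CPM in iKO and 208 ± 8.27 CPM in Ctrl (SD, n = 6 each).

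Many ribosomal proteins of mitochondria, encoded by separate genes, fell as well. Of 77 tested members 57 fell (74.0%, against 21.4% of all tested genes) and 0 rose, with a median log2 fold change of -0.34. In 37 of them (48.1%, against 11.1% of all tested genes) every iKO library was below every Ctrl library. Their share of all counts was 0.287 ± 0.0201% in iKO and 0.375 ± 0.0282% in Ctrl (SD, n = 6 each). The smallest p belonged to Mrpl34 (-0.80 ± 0.09, SE, edgeR adjusted p = 2.67e-05), Mrps21 (-0.75 ± 0.10, adjusted p = 6.15e-05), Mrps27 (-0.61 ± 0.08, adjusted p = 6.6e-05) and Mrps35 (-0.40 ± 0.05, adjusted p = 7.82e-05). The difference between cytosolic and mitochondrial members was not tested.

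Among other abundant genes the shorter transcripts had the lower medians, and the core genes are short. Core main transcripts have a median of 886 bases, against 3026 for other protein-coding genes. Among other protein-coding genes with a mean of at least 100 CPM, the median log2 fold change was -0.33 for transcripts under 800 bases (n = 48, 66.7% lower), -0.24 for 800 to 1500 bases (n = 174, 58.6% lower), -0.17 for 1500 to 3000 bases (n = 738, 52.4% lower) and 0.04 from 3000 bases on (n = 1307, 22.6% lower). For core genes with at least 100 CPM it was -0.35 under 800 bases (n = 32, 96.9% lower), -0.34 for 800 to 1500 bases (n = 31, 93.5% lower) and -0.33 for 1500 to 3000 bases (n = 9, 100% lower). Over all 361 other protein-coding genes under 800 bases, whatever their level, the median was -0.26, with 42.9% lower and 13.3% higher. The shortest core genes thus lay near other genes of their length with at least 100 CPM in their median, and the longer ones below them. Within the core family, the correlation of log2 fold change with log2 transcript length was 0.21 over 77 genes, which share the same 12 libraries. Over 13312 other protein-coding genes of any level it was 0.061. The part of transcript length in the fall of the family was not tested.

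**Figure D5:**
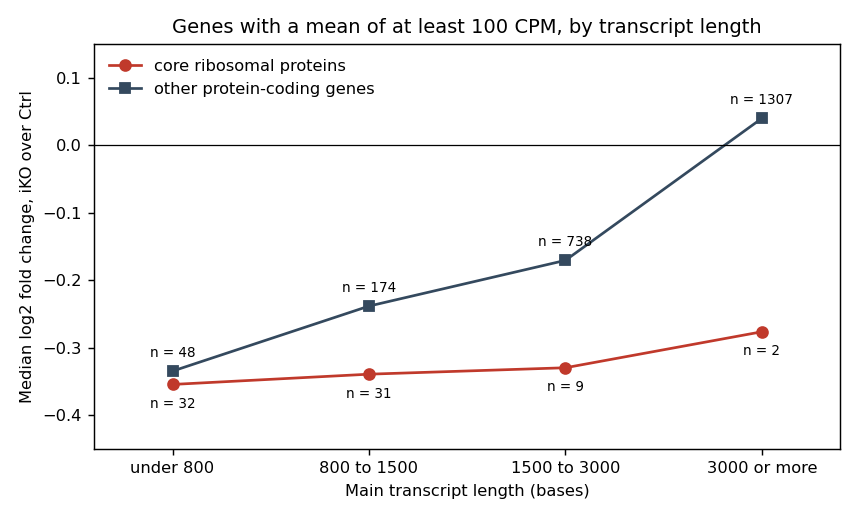
Median log2 fold change, iKO over Ctrl, of core ribosomal protein genes and of other protein-coding genes by main transcript length, for genes with a mean of at least 100 CPM, with the number of genes at each point. The lines lie close together under 800 bases, at -0.35 for core genes and -0.33 for other genes, and apart above that length.

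Core genes with and without the annotated pyrimidine start had similar medians, and the difference was not tested. The 13 core genes with it, 12 of them lower, had a median log2 fold change of -0.38, and the 44 with an entry but without it, 42 of them lower, -0.33. Of the 6 genes whose starts are printed above, Rpl35 (-0.52), Rpl38 (-0.52), Rplp2 (-0.39), Rpl28 (-0.32) and Rps6 (-0.29) fell, and Rps10 did not pass.

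Leukocyte, macrophage, lymphocyte and pigment cell markers differed between the groups, with iKO 1 and Ctrl 5 apart from their groups in the leukocyte score. Over all tested genes, 25.0% were called higher and 21.4% lower. The summed level of 10 leukocyte markers, 9 of which rose (90.0%), was 446 to 2233 CPM in iKO (median 1544) and 300.1 to 508 CPM in Ctrl (median 308). That of 7 macrophage and monocyte markers, all higher, was 154 to 1432 CPM in iKO (median 983) and 13.2 to 206 CPM in Ctrl (median 16.1), and that of 8 T and cytotoxic lymphocyte markers, all higher, 20.5 to 266 CPM in iKO (median 219) and 3.93 to 11.1 CPM in Ctrl (median 5.16). Of 9 pigment cell markers, chosen to mark the implanted line, 7 fell (77.8%, against 37.9% of genes that averaged 100 CPM or more) and 1 rose. Their median log2 fold change was -0.38, near that of the core genes. Their summed level was 22095 to 29604 CPM in iKO (median 25109) and 28429 to 29059 CPM in Ctrl (median 28697). Of 7 fibroblast markers 1 rose, although the fitted log2 fold change was above 0 for all, at 1.04 to 1.69. Their summed level spread widely in iKO, at 596 to 14600 CPM (median 2391), against 2261 to 2583 CPM in Ctrl (median 2389.9). Of 5 endothelial markers 3 rose and 1 fell, of 3 keratinocyte markers all rose, of 4 muscle markers 2 rose, and neither of the 2 tested red cell markers passed. No marker was at 0 in all 12 libraries. Counts on mitochondrial transcripts made up 1.56 ± 0.374% in iKO and 1.21 ± 0.132% in Ctrl (SD, n = 6 each). With the leukocyte score as a further term in the edgeR fit, 56 of 77 core genes passed as lower, 0 as higher, and the median log2 fold change was -0.69, while 1110 genes in all were called lower. Without Ctrl 5 and iKO 1, and without the score, 56 of 77 also passed as lower, but the median was -0.26. In that fit 3331 of 16429 tested genes were lower. The part of these cells in the fall of the core genes was not tested further, and with 5 of 6 libraries of each group on opposite sides of the score, cell content and genotype cannot be told apart by this fit.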

How the data were processed

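Poly(A) RNA of sorted B16F10 tumour cells was sequenced without strand information in 1 batch, per the labels' protocols. The authors deposited 1 table of whole-number read counts per gene with a gene length in bases, per the file headers. The reads were placed on mm10, per the submitters' processing notes, while the sources used here name neither aligner nor counting program, nor how reads with several matches were treated. Reads of overlapping genes cannot be told apart. Coordinates are GRCm38, as deposited, and 98.3% of genes had the same coordinates in GENCODE M21. No library column of the table was left unused.

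Counts were fitted in R 4.3.3 with edgeR 4.0.16 (glmQLFit and glmQLFTest, TMM scaling, filterByExpr with a minimum count of 10 and a minimum total of 15), iKO against Ctrl, without covariates. The filter left 16164 genes, which hold 99.9% of counts, and p-values were adjusted over all of them by Benjamini-Hochberg. The threshold was an adjusted p of 0.05. CPM values are TMM-scaled, RPKM divides them by the deposited gene length, and the standard error is the absolute log2 fold change over the square root of F. Alternatives were DESeq2 1.42.0, limma 3.58.1 with voom, other scalings, no filter, libraries left out, the replicate number as a block, the leukocyte score as a covariate and copies summed with their gene. Copies were found with BLAST 2.17.0 as annotated transcripts with at least 95% identity over at least 80% of a coding region, where a match that is not a pseudogene also had to be short enough for the coding region to fill 40% of it. Tables were handled in Python 3.11.15 with pandas 2.3.3. The test was checked on simulated counts for iKO against Ctrl over 15920 genes, with 100 genes changed 1.3-fold, of which it recovered 20%, and 100 changed 2-fold, of which it recovered 72%. The changed genes were drawn at random over many levels and all others left unchanged, unlike the data. These shares therefore do not describe the test for the abundant core genes.

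Genes were named by rule: among core genes the 6 largest falls past the threshold, the 5 highest and 3 lowest by mean RPKM and, of those whose groups did not overlap, the 8 with the smallest p; every paralog with its parent; Fau and Rack1; up to 4 genes with the smallest p in each list; and Trex1. Others were named after their values were seen, and results of 2 genes are not reported here. The members and lists were chosen with earlier results of these data known. The labels do not say which libraries came from separate mice, so p-values measure the spread between these libraries. Within each group no pair of libraries had counts alike to within sampling noise. Counts of the closest same-group pair differed by a chi-square of 7.47 per degree of freedom. Pairs across groups were not compared, and the check cannot show whether libraries share a tumour or a mouse. A limit of 3 counts was used for a count of 0.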

Additional observations from a re-analysis of the deposited data

Results flagged for a closer look

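In 122 groups of 6 libraries, 6 held a library far from the others, where chance alone gives about 1 in 20. iKO 6 was the highest iKO library by a wide gap for Rplp1, at 1299 CPM (next 932 CPM), Rps15, at 739.7 CPM (next 535 CPM), Rpl36, at 409 CPM (next 322 CPM), and the retrogene Rps27rt, at 116 CPM (next 63.8 CPM). iKO 1 was lowest for Rps10, at 7.59 CPM (next 11.6 CPM). iKO 2 was lowest for Mtor, at 64.8 CPM (next 75.1 CPM).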

How the results depend on the processing

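No core gene was called higher in any alternative fit. The count called lower, 72 as fitted, was 63 to 75 with DESeq2, voom, other scalings, no filter, the replicate block and summed copies. It was 49 to 75 with 1 library left out, lowest without Ctrl 4, and 56 without Ctrl 5 and iKO 1. It moved to 42 without iKO 2 and iKO 3, where 2965 of 16511 tested genes were lower. Without Ctrl 4 and Ctrl 5 it moved to 34, where 2751 of 16926 were lower. With 1 library left out, the core median ranged from -0.39 to -0.26, the difference in share from -1.30 to -0.997 points, the subunit ratio, iKO over Ctrl, from 1.016 to 1.022, and the genes called higher from 3707 to 4484 and lower from 2671 to 3750. With the leukocyte score as a covariate 1032 genes were higher and 1110 lower, and the core median was -0.69. Replicate numbers did not pair the libraries: correlations of same-numbered libraries were 0.25, -0.051, -0.021, -0.025, 0.21 and -0.13, and 1 of 6 iKO libraries was closest to its own number. The replicate block left 63 core genes lower, and 3489 genes higher and 2984 lower in all. Against the TMM fit, other scalings moved the median of all genes by at most 0.064 in size, to -0.041 with the upper quartile and 0.040 with ribosomal protein genes kept out of TMM.

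Among the genes named by rule, direction changed for 5, none of them called. Rpl24 was at 0.16 without Ctrl 4 and Ctrl 5, 0.15 without Ctrl 5 and iKO 1, 0.0031 with ribosomal protein genes kept out of the scaling, 0.14 with copies summed, 0.18 without iKO 2 and iKO 3, and between -0.17 and 0.11 with 1 library left out. Rps27rt was at -0.36 with the covariate and at -0.089 to 0.19 with 1 library left out. Rpl36al was at 0.0011 with copies summed, 0.041 without iKO 2 and iKO 3, 0.56 with the covariate, and between -0.19 and 0.096 with 1 library left out. Rpl39l was at -0.36 without iKO 2 and iKO 3. Fau was at 0.011 without Ctrl 4 and Ctrl 5 and 0.043 without Ctrl 5 and iKO 1. The cause was not tested. Over the single genes named by rule, 122 fits of a called gene no longer passed the threshold, most of them of Taf1b, Ubtf, Rpl3, Rps27a and Rps15. Core genes outside that rule are not part of this count. Genes with most reads in copies or in overlapping exons, and genes of few counts such as Rpl24 and Rpl36al, are the least certain.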
